A study of Schizosaccharomyces pombe with 23 samples.

Results

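The libraries described here are the 3 Pol δ Pu-Seq libraries of *rpn10Δ* fission yeast, out of 23 libraries in the series. They were chosen by genotype and by their counts over *rtf1*. KK1868 and KK1869 carry the Hygro marker at *rpn10* and had counts over *rtf1*, and KK1581 is labelled *rpn10Δ* with no marker named and had almost none. Pu-Seq maps ribonucleotides left in DNA by a polymerase mutant. Here the mutant is cdc6-L591G, a variant of the Pol δ catalytic subunit, in an rnh201-RED:Kan background in which ribonucleotides are not efficiently removed. DNA from log-phase cells was cut at these ribonucleotides with RNase H2. Each library holds the mapped ends per 300-bp bin, separately for the Watson and the Crick strand. Each of the 3 strains is also labelled with an *RTS1* replication fork barrier on chromosome II (RTS1::phleo), Rura-ChrII, ura4-D18, ade6-704 and leu1-32. The labels of all 3 also name *rtf1* behind an *ADH1* promoter (Nat:ADH1:rtf1 in KK1868 and KK1869, NAT:ADH1:rtf1 in KK1581). WT libraries KK1471 (Nat:ADH1:rtf1) and KK1467 (rtf1::Nat), and 5 *nup132Δ* libraries (4 with ADH1:rtf1 and KK1515 with rtf1::NAT), served as side-by-side values. Of the *nup132Δ* libraries, KK1901 and KK1902 are labelled nup132::Hygro. KK1518, KK1517 and KK1515 are labelled *nup132Δ* with no marker named. The labels of these WT and *nup132Δ* libraries also name cdc6-L591G, rnh201-RED with the Kan marker, the barrier (RTS1::phleo), Rura-ChrII, ura4-D18, ade6-704 and leu1-32.

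RTS1 is a polar replication fork barrier, and Rtf1 is the Myb-type DNA-binding protein that must bind it before forks stop there. Rpn10 is a ubiquitin receptor of the proteasome. In a normal fork Pol ε makes the leading strand and Pol δ the lagging strand, so that a Pol δ library has few Watson counts where forks move rightward and many where they move leftward. A fork restarted by homologous recombination uses Pol δ on both strands, which brings the Watson share, Watson counts divided by the counts of both strands, towards 0.5. Leftward forks that enter from the other side also raise the share downstream of the barrier, and can take it above 0.5. The share of a Pol δ library alone cannot tell how much each of these contributes.

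The sequence below shows what separates KK1868 and KK1869 from KK1581 at *rtf1* (SPAC22F8.07C, chromosome I:4797195-4799127, Crick strand). It is the start of the first coding exon, chromosome I:4798629-4798928 in the RefSeq assembly ASM294v3, read on the coding strand. The capitals mark the 172 bases that lie in a bin where KK1581 had no count.
rtf1 coding start: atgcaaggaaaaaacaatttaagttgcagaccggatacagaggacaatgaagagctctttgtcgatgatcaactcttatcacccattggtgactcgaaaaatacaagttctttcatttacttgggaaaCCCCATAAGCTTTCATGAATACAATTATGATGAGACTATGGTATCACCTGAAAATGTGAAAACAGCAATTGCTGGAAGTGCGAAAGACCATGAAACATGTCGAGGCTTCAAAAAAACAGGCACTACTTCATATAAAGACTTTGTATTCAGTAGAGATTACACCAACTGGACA
The next sequence is the stretch just before the annotated transcript start, chromosome I:4799128-4799400. It is shown because its counts ran the other way between the libraries. It lies between *rtf1* and the divergent gene *sec24*, which encodes a subunit of the COPII vesicle coat.
rtf1 upstream: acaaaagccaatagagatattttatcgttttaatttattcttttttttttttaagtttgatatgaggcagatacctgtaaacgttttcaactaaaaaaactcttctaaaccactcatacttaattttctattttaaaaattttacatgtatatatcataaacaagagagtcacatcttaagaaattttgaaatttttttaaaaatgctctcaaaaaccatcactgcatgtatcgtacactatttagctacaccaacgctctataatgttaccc

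Over the 5 bins from 4797301 to 4798800, KK1868 had 278, 205, 220, 250 and 120 counts, and KK1869 had 275, 247, 231, 254 and 146. KK1581 had 0 counts in each of these bins. In the bin that holds most of the upstream sequence, 4799101 to 4799400, the order was turned round, with 26 counts in KK1868 and 49 in KK1869, against 211 in KK1581. The WT libraries showed the same 2 patterns, with 23 counts in this bin in KK1471 and 309 in KK1467, and with 69 and 0 counts in the coding bin from 4798501 to 4798800. KK1581 therefore had the *rtf1* counts of an rtf1::Nat library, against its own label, and its condition is written here as the library labelled NAT:ADH1:rtf1 whose *rtf1* counts were near 0. These counts chose the libraries and were not tested. Every direction below that sets libraries with *rtf1* counts against KK1581 rests on these counts and not on the label.

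The deletion of *rpn10* (SPAC637.10C, chromosome I) was seen in all 3 libraries. The 3 bins inside the gene held 1 count in KK1868, 0 in KK1869 and 0 in KK1581, against 369 in KK1471 and 1078 in KK1467. *nup132*, which encodes a nucleoporin of the Y complex, was intact in the *rpn10Δ* libraries, at 107%, 106% and 109% of its flanking bins in KK1868, KK1869 and KK1581. *ura4* lies on chromosome III, where bins and reference differ in length, and was not checked.

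**Figure D1:**
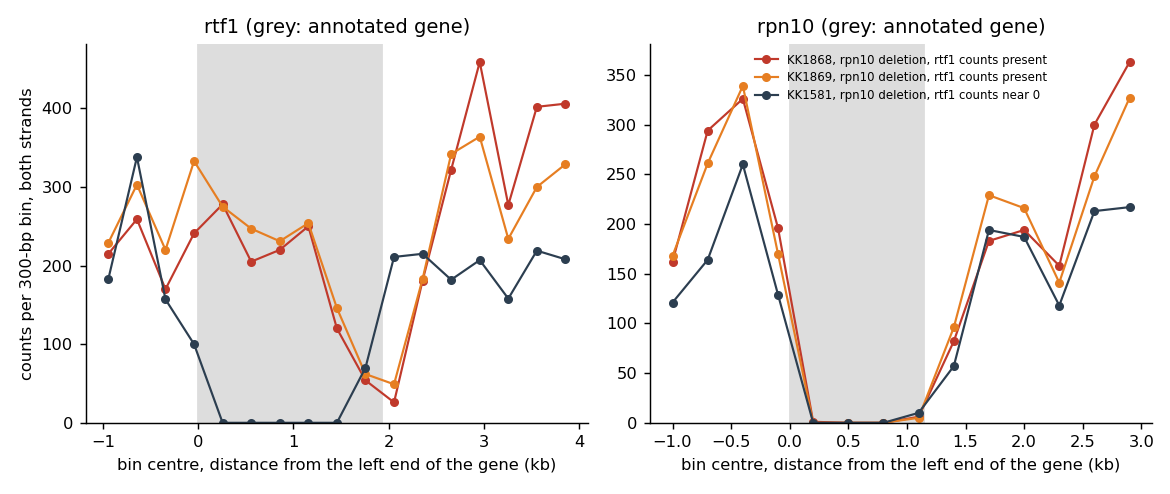
Counts per 300-bp bin, both strands summed, around *rtf1* and *rpn10* in KK1868, KK1869 and KK1581. The horizontal axis gives the distance of the bin centre from the left end of the gene in kb, and grey marks the annotated gene; KK1581 is at 0 over most of *rtf1*, and all 3 libraries are at or near 0 over *rpn10*.

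KK1868 held 13300719 counts, KK1869 12648508 and KK1581 9960885, and the 10 Pol δ libraries deep enough to use, with 10 or more counts in the average bin, held between 5396348 and 17000711. Watson counts made up 50.6% of KK1868, 50.5% of KK1869 and 50.4% of KK1581. KK1868 and KK1869 differed by more than counting error, with a chi-square of 4.21 per degree of freedom over 83803 bins and strands, and were counted as 2 libraries. The chi-square was 8.39 between KK1868 and KK1581 and 3.73 between KK1869 and KK1581. This value grows with depth, and KK1581 had the fewest counts of the 3. Nothing in the labels says that the strains were grown independently, and p-values measure only the spread between these libraries.

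Right of the barrier, the Watson share was several times higher in the libraries with *rtf1* counts. The barrier position was taken from the WT libraries, as the bin boundary with the largest step in the difference of share between KK1471 and KK1467. It fell at position 852600 of chromosome II as the files number it. Their genome build is not given in the sources used here. From 1 to 3 kb downstream the share was 0.552 in KK1868 (95% Wilson interval 0.537 to 0.567, 4302 counts) and 0.511 in KK1869 (0.496 to 0.525, 4401 counts), against 0.166 in KK1581 (0.149 to 0.185, 1726 counts). The intervals cover counting error only. The mean share was 0.531 ± 0.030 (SD, n = 2) in KK1868 and KK1869. It exceeded by 0.365 that of KK1581, a single library with no spread of its own. With 2 libraries against 1, the exact two-sided permutation test has 3 arrangements and gave p = 0.333, which is the smallest p it allows.

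The share kept rising with distance and reached its highest smoothed value, over 11 bins summed, 12.15 kb from the barrier in KK1868 at 0.793 and 11.55 kb from it in KK1869 at 0.770. From 9 to 11 kb downstream it was 0.677 in KK1868 and 0.701 in KK1869, against 0.189 in KK1581. From 19 to 21 kb the shares were 0.719 in KK1868 and 0.736 in KK1869, against 0.374 in KK1581. In all of these regions both libraries with *rtf1* counts lay above 0.5 and KK1581 below it. From 29 to 31 kb the gap was small, at 0.616 and 0.626 in KK1868 and KK1869, against 0.516 in KK1581. From 49 to 51 kb the shares of 0.577 and 0.592 in KK1868 and KK1869 lay on both sides of the 0.584 of KK1581.

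**Figure D2:**
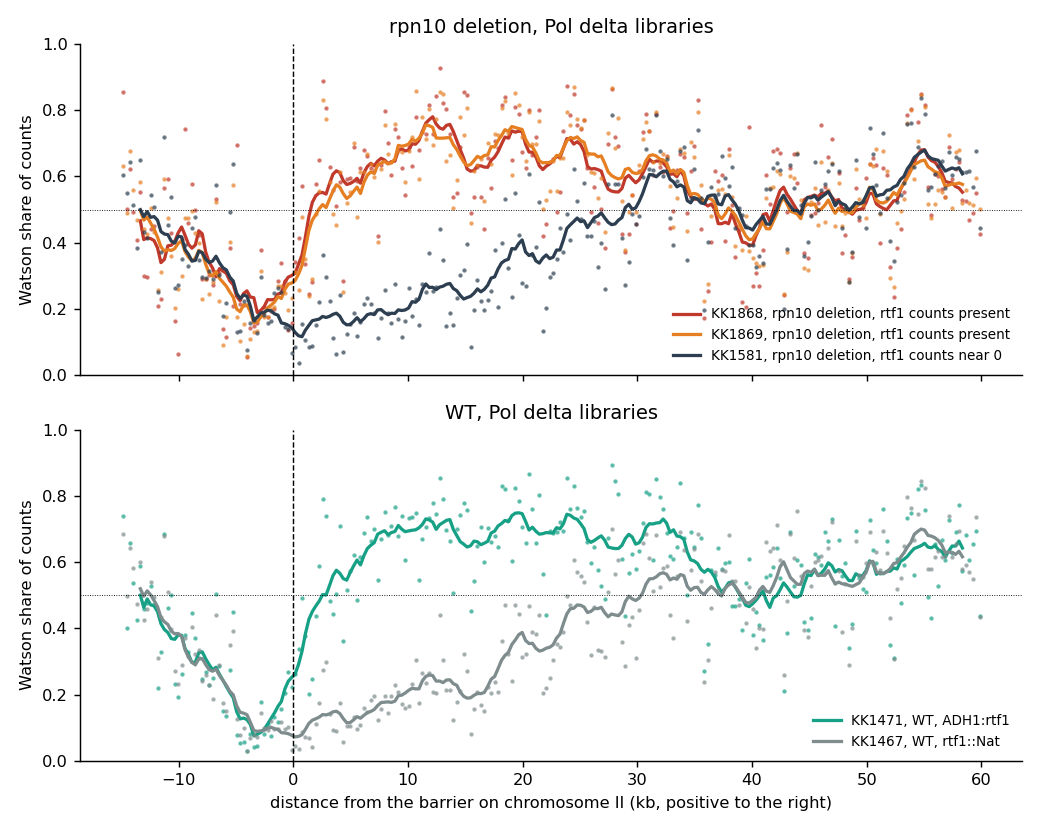
Watson share of counts per 300-bp bin (points) and its running mean over 11 bins (lines), against the distance from the barrier in kb, for KK1868, KK1869 and KK1581 above and for the WT libraries KK1471 and KK1467 below. The lines of KK1868 and KK1869 leave that of KK1581 at the barrier (dashed) and meet it again past 30 kb.

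The difference was present bin by bin. In each of the 100 bins from 0 to 30 kb downstream, KK1868 and KK1869 both had a higher share than KK1581, with a median difference of 0.371. Elsewhere in the genome both were higher in 37.9% of 41499 bins and both lower in 38.1%, with a median difference of -0.0003. The median absolute difference between KK1868 and KK1869 was 0.040 in the downstream bins and 0.041 elsewhere. Of the 100 downstream bins, 81 in KK1868 and 83 in KK1869 had a share above 0.5, against 11 in KK1581. In WT the counts were 85 bins in KK1471 and 8 in KK1467.

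Most of the change was a gain of Watson counts. In the window from 855001 to 858000, KK1868 had 231 and KK1869 233 Watson CPM (counts per 1000000 counts of the library), against 33.9 in KK1581. Crick counts in that window were 134 and 162 CPM in KK1868 and KK1869, against 172 CPM in KK1581. Farther on, from 861001 to 864000, Watson counts were 194 and 229 CPM in KK1868 and KK1869, against 42.1 CPM in KK1581. The Crick strand of that window was down to 89.8 and 93.7 CPM in KK1868 and KK1869, against 167 CPM in KK1581. Over the region from 1 to 3 kb, the mean Watson level of KK1868 and KK1869 was 6.18 times that of KK1581, while the Crick level was 1.09 times. From 9 to 11 kb these ratios were 5.08 and 0.532. Among the regions summed, the Crick level was below that of KK1581 from 4 to 6 kb on, where it was 0.872 times. In WT, KK1471 over KK1467 gave 7.33 for Watson and 1.07 for Crick from 1 to 3 kb, and 4.45 and 0.499 from 9 to 11 kb.

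The window across the barrier, from 852001 to 855000, differed from those to its right. Both strands were higher there, with 159 and 170 CPM on Watson in KK1868 and KK1869, against 30.2 CPM in KK1581. Crick counts were 316 and 347 CPM in KK1868 and KK1869, against 252 CPM in KK1581. Summed over both strands, this window and the next were higher in the libraries with *rtf1* counts by 0.81 and 0.89 on the log2 scale, and in KK1471 over KK1467 by 0.52 and 0.75. The excess was not limited to these windows. Over the 11 windows from 0 to 30 kb downstream its median was 0.53 against KK1581, and over all windows -0.004. Only 12 of 4192 windows differed by 0.8 or more in total counts between the mean of KK1868 and KK1869 and KK1581, among windows with a mean of at least 20 CPM.

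**Figure D3:**
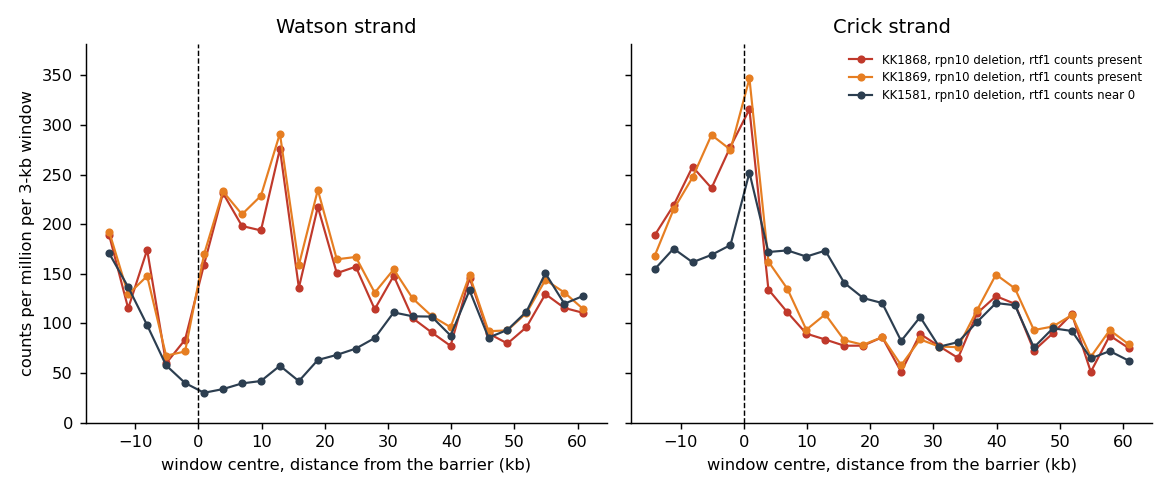
CPM in 3-kb windows on the Watson strand (left) and the Crick strand (right), against the distance of the window centre from the barrier in kb, for KK1868, KK1869 and KK1581. Watson counts of KK1868 and KK1869 exceed those of KK1581 over the 11 windows from the barrier on, while their Crick counts are higher up to the barrier and lower in the windows past it to about 25 kb.

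Left of the barrier the share had no single direction. From 5 to 1 kb upstream it was 0.208 in KK1868 and 0.166 in KK1869, against 0.172 in KK1581, a mean difference of 0.015 with the value of KK1581 between those of the others. Moving the barrier 1 bin to the left turned this difference to -0.008, and without KK1868 it was -0.006. KK1868 stood apart in single bins at the left edge of this region. In the bin centred at 847650 the share was 0.694 in KK1868, 0.177 in KK1869 and 0.131 in KK1581. In the bin centred at 847350, which the moved barrier brings in, it was 0.21 in KK1868, 0.574 in KK1869 and 0.639 in KK1581. The region also covers only parts of windows that moved in opposite directions. From 849001 to 852000 the shares were 0.231 in KK1868 and 0.207 in KK1869, against 0.183 in KK1581, and from 846001 to 849000 they were 0.202 and 0.189 in KK1868 and KK1869, against 0.255 in KK1581. All 3 *rpn10Δ* libraries lay above the WT libraries here, at 0.081 in KK1471 and 0.091 in KK1467. So did the *nup132Δ* libraries, at 0.251 in KK1901, 0.232 in KK1902, 0.225 in KK1518, 0.145 in KK1517 and 0.103 in KK1515. The level in CPM over this region was higher in KK1868 and KK1869 than in KK1581 on both strands, by 1.70 times on Watson and 1.54 times on Crick. In WT these ratios were 1.15 and 1.29.

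In the fit across all windows, the odds of a Watson count were compared between groups in 3-kb windows. The test was of the strand-by-group interaction in edgeR's quasi-likelihood framework, and was fitted on the 3 *rpn10Δ* libraries with Benjamini-Hochberg adjustment over 4192 windows. The spread came only from KK1868 and KK1869 and was pooled over windows (infinite prior degrees of freedom). The size of the SEs and p-values of this fit therefore does not measure support from several libraries per group. Of the 23 windows from 6 kb upstream to 60 kb downstream, 12 passed the threshold of 0.05, against 20.2% of all windows. They include 11 in a row from 852001 to 885000 that were higher in KK1868 and KK1869 (9.97% of all windows passed in this direction, and 10.3% in the other). The log2 odds ratio was 2.05 ± 0.23 (SE) in the window across the barrier and 2.99 ± 0.21 in the next. It was highest from 861001 to 864000, at 3.19 ± 0.19, where the shares were 0.683 in KK1868 and 0.709 in KK1869, against 0.201 in KK1581. It then fell with distance, to 1.69 from 873001, 0.82 from 879001 and 0.44 from 882001 (adjusted p = 0.041). The twelfth window, at the far end from 912001 to 915000, was lower, at -0.49 ± 0.16 (adjusted p = 0.018), with 0.595 and 0.591 in KK1868 and KK1869, against 0.671 in KK1581. The 2 windows left of 852001 did not pass. With an offset for the genome-wide strand asymmetry of each library, the 11 windows in a row all passed, the window from 846001 passed as lower (-0.83, adjusted p = 0.0014, against 0.058 without the offset) and the window from 912001 did not pass (adjusted p = 0.186).

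These calls depended on the method and on the libraries in the fit. DESeq2 called 9 of the 11 windows higher, against 0.334% of all windows higher and 0.0716% lower. In 1 edgeR fit of all 10 usable Pol δ libraries none of the 4192 windows passed (lowest adjusted p = 0.373), with 514 at an unadjusted p under 0.05, among them 10 of the 23 around the barrier. Without KK1868 that fit called 9 windows and without KK1869 8, all around the barrier and higher. Within the *nup132Δ* groups that enter it, pairs with the same label differed by far more than KK1868 and KK1869. Shares from 1 to 3 kb downstream were 0.608 in KK1901 and 0.338 in KK1902, both nup132::Hygro. They were 0.303 in KK1518 and 0.634 in KK1517, both with no marker named. Whether this spread bears on the number of calls was not tested. A fit of the *rpn10Δ* and WT libraries without *nup132Δ*, an alternative chosen after seeing the data, called 13 of the 23 windows. With 1 library per WT condition, the spread in that fit again came only from KK1868 and KK1869. It therefore gives no separate support to the calls.

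The difference of share next to the barrier was set beside those of WT and *nup132Δ*. From 1 to 3 kb the difference of share was 0.365 in *rpn10Δ* (KK1868 and KK1869 minus KK1581), 0.363 in WT (KK1471 minus KK1467) and 0.333 in *nup132Δ* (mean of 4 libraries minus KK1515). From 9 to 11 kb it was 0.50 in *rpn10Δ*, 0.491 in WT and 0.310 in *nup132Δ*, and from 29 to 31 kb 0.105, 0.172 and 0.082 in the same order. In the window from 879001 to 882000 it was 0.140 in *rpn10Δ* and 0.224 in WT, and in the next 0.071 in *rpn10Δ* and 0.174 in WT. The test of the difference between backgrounds, in the fit of all 10 libraries, called 0 of 4192 windows against WT and 0 against *nup132Δ*, with 190 and 399 windows at an unadjusted p under 0.05 (edgeR; the alternatives gave 0 as well). None of the 23 windows around the barrier reached an unadjusted p under 0.05 against WT, and 2 did against *nup132Δ*. Over the 11 windows in a row, the log2 odds ratio of *rpn10Δ* minus that of WT lay between -0.67 and 0.08. This fit did not call the difference between the *rpn10Δ* libraries themselves, so its counts of 0 do not show that the backgrounds were alike. WT gave 1 library per condition.

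The difference of share, smoothed over 11 bins, had lost 50% of its 1 to 3 kb value 26.25 kb downstream of the barrier in *rpn10Δ*, at 25.95 kb with KK1868 alone and 27.15 kb with KK1869 alone. In WT it was 29.85 kb. In *nup132Δ* the distance was 25.65 kb with KK1901, 23.55 kb with KK1902, 5.85 kb with KK1518 and 28.95 kb with KK1517. The *rpn10Δ* values lay within the range of the *nup132Δ* libraries, and that of WT lay above it. The difference in *rpn10Δ* reached 0 at 34.95 kb and that in WT at 38.25 kb. These distances are descriptions and were not tested.

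**Figure D4:**
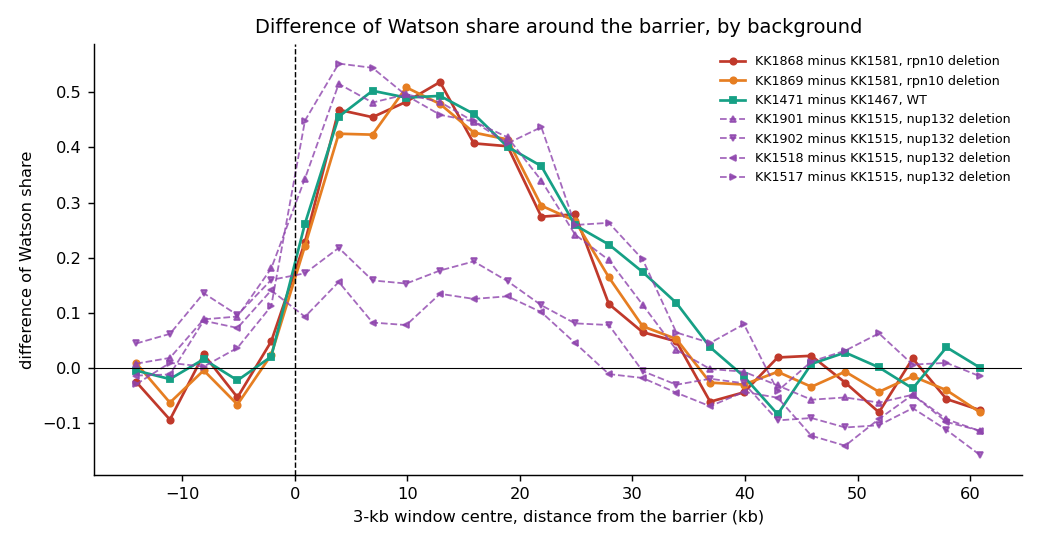
Difference of Watson share in 3-kb windows against the distance of the window centre from the barrier in kb, for KK1868 and KK1869 minus KK1581, for the WT library KK1471 minus KK1467, and for each of 4 *nup132Δ* libraries minus KK1515. The *rpn10Δ* and WT lines cross more than once up to about 25 kb. WT lies above the *rpn10Δ* mean in windows such as those from 858001 (0.502 against 0.439) and 873001 (0.366 against 0.284). The *nup132Δ* libraries split into a high and a low pair.

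Over the rest of the genome, the share of KK1868 and KK1869 followed that of KK1581 but was drawn towards 0.5. Across 4151 windows more than 60 kb from the barrier, Pearson's r between the mean of KK1868 and KK1869 and KK1581 was 0.968, and between KK1868 and KK1869 it was 0.982. These are correlations across windows of the same genome, which are not independent replicates. The slope of a library's share on that of KK1467, a single number for how far its strands are separated, was 0.696 in KK1868 and 0.737 in KK1869, against 0.849 in KK1581. The mean difference was -0.132, larger than the gap of 0.040 between KK1868 and KK1869, with an exact two-sided permutation p of 0.333, again the smallest p that 3 arrangements allow. In WT the slope of KK1471 was 1.03, and that of KK1467 is 1 by construction. In *nup132Δ* with ADH1:rtf1 it was 0.601 in KK1901 and 0.699 in KK1902, both nup132::Hygro. It was 0.739 in KK1518 and 0.839 in KK1517, both with no marker named, against 0.957 in KK1515. In *rpn10Δ* the Hygro marker goes with the *rtf1* counts, so marker and *rtf1* cannot be told apart for this difference.

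At the extremes of the share the calls went towards 0.5, while most called windows lay between them. Of the 4151 windows, 406 were called higher and 428 lower in KK1868 and KK1869, with a median absolute log2 odds ratio of 0.54, and in all 834 of them both libraries had moved the same way from KK1581. Where the share of KK1467 was under 0.25, 29.7% of 623 windows were called higher and 0.161% lower. Mean shares there were 0.274 in KK1868 and 0.260 in KK1869, against 0.229 in KK1581. Where it was over 0.75, 29.9% of 615 windows were called lower and 0.976% higher, with mean shares of 0.725 in KK1868 and 0.736 in KK1869, against 0.768 in KK1581. The 2913 windows between these limits held 458 of the 834 calls, 215 higher and 243 lower (7.38% and 8.34% of them). With an offset for the strand asymmetry of each library, 311 windows away from the barrier were called (7.75% of all windows passed), and DESeq2 called 7.

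**Figure D5:**
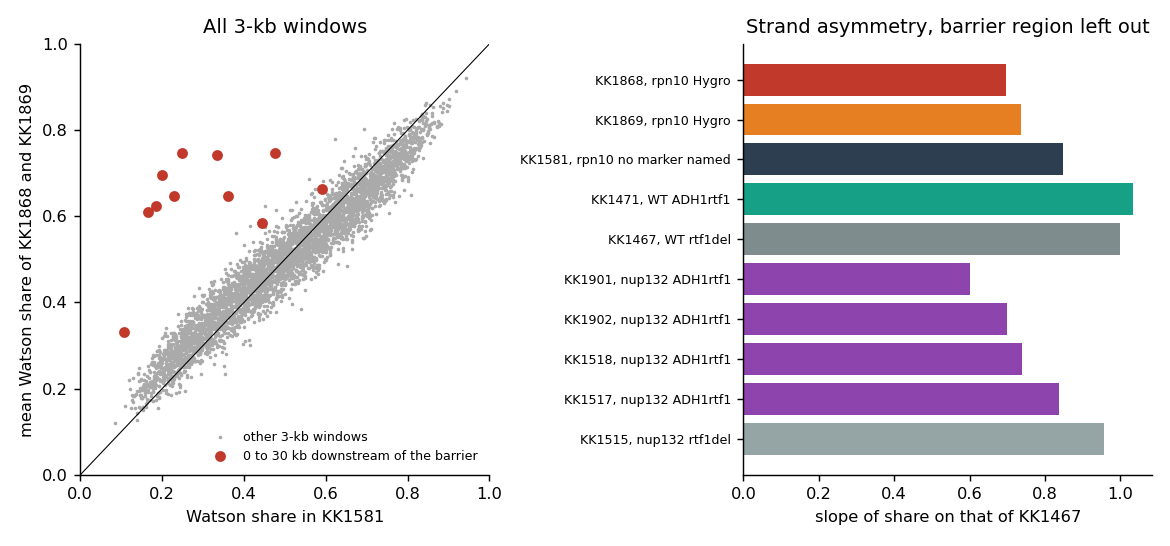
Left, mean Watson share of KK1868 and KK1869 against that of KK1581 in all 3-kb windows, with the diagonal; red points are the 11 windows from 0 to 30 kb downstream of the barrier. Right, the slope of each library's share on that of KK1467, barrier region left out, where KK1868 and KK1869 (0.696 and 0.737) lie below KK1581 (0.849).

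Replication origins, where the share drops from left to right, did not show the same loss. At 441 origins found in KK1467, the share 3 kb to the left exceeded that 3 kb to the right by a median of 0.333 in KK1868 and 0.356 in KK1869, against 0.343 in KK1581. KK1868 and KK1869 both had a smaller drop than KK1581 at 140 origins (31.7%) and both had a larger one at 176 (39.9%). The median drop was 0.491 in KK1471 and 0.464 in KK1467, above all 3 *rpn10Δ* libraries. The *nup132Δ* libraries also lay below WT, at 0.244 in KK1901, 0.275 in KK1902, 0.275 in KK1518, 0.360 in KK1517 and 0.419 in KK1515.

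Of the 10 regions outside the barrier with the largest odds ratios, 5 lay on chromosome I, where bins and reference have the same length and genes can be named. The largest change was in the window from 3984001 to 3987000, over SPAPB18E9.04C and SPAPB18E9.05C, with shares of 0.598 in KK1868 and 0.699 in KK1869, against 0.809 in KK1581 (log2 odds ratio -1.19 ± 0.20, adjusted p = 1.13e-06). KK1868 lay much farther from KK1581 than KK1869 did. The next, from 4329001 to 4332000, covered *ost1*, for a subunit of the oligosaccharyltransferase, and *pdt1*. Its shares were 0.248 in KK1868 and 0.193 in KK1869, against 0.118 in KK1581 (1.07 ± 0.19, adjusted p = 3.94e-06), and with the offset the log2 odds ratio was 0.62 (adjusted p = 0.018). The window from 954001 to 957000, over *mak16*, a ribosome biogenesis factor, and *hri2*, an eIF2α kinase, was lower, at 0.653 and 0.668 in KK1868 and KK1869, against 0.791 in KK1581. That from 2646001 to 2649000, over *rng2*, the IQGAP protein of the cytokinetic ring, was higher, at 0.255 and 0.239 in KK1868 and KK1869, against 0.144 in KK1581. Its log2 odds ratio of 0.96 was 0.52 with the offset and no longer passed (adjusted p = 0.052). The window from 2706001 to 2709000, over *gpi12*, of GPI anchor synthesis, and *grx5*, a mitochondrial glutaredoxin, was lower, at 0.619 and 0.646 in KK1868 and KK1869, against 0.769 in KK1581. On chromosomes II and III the other 5 leading windows had absolute log2 odds ratios from 0.97 to 1.06. In 1 of these, from 690001 to 693000 on chromosome II, total counts were also higher in KK1868 and KK1869, by 1.05 on the log2 scale, and the call of its share was lost with the offset (adjusted p = 0.185). DESeq2 called 4 of the 10, and the fit of all Pol δ libraries none.

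The window that holds *rtf1* has unequal sequence in the 2 kinds of library and was left aside. Of the other 20 windows within 30 kb of *rtf1*, 3 were called higher and 0 lower, against 9.97% higher and 10.3% lower over all windows. The difference of share had a median of 0.007 and ran from -0.052 to 0.127, above 0 in 11 windows and below it in 9. The largest was next to the gene. From 4800001 to 4803000, the window right of the gene, which holds most of *sec24*, the share was 0.702 in KK1868 and 0.673 in KK1869, against 0.560 in KK1581 (log2 odds ratio 0.79 ± 0.17, adjusted p = 0.00031; DESeq2 adjusted p = 0.106). WT libraries had 0.786 in KK1471 and 0.586 in KK1467 there. Among the *nup132Δ* libraries, 2 of the 4 with ADH1:rtf1 were above KK1515 at 0.653 and 0.733, and 2 below it at 0.584 and 0.601, against 0.617 in KK1515. From 4809001 to 4812000 the shares were 0.356 in KK1868 and 0.327 in KK1869, against 0.271 in KK1581, while KK1471 and KK1467 had 0.281 and 0.291. With the offset this window no longer passed (adjusted p = 0.232). Within 30 kb of *rpn10*, 3 of the 20 windows that do not hold the gene were called higher and 0 lower. Over all windows 9.97% were called higher and 10.3% lower. The 3 called windows lay side by side between 4542001 and 4551000.

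At the native *RTS1*, which lies next to the mating-type locus *mat1* on chromosome II, windows were called about as often as over all windows. Of 10 windows in the 30 kb from 2.1 Mb, 2 were called lower and 0 higher, which is 2 calls in 10 against 20.2% of all windows. The median difference was -0.018. From 2109001 to 2112000 the share was 0.484 in KK1868 and 0.478 in KK1869, against 0.574 in KK1581 (log2 odds ratio -0.54 ± 0.16, adjusted p = 0.0085; DESeq2 adjusted p = 0.294). WT had 0.626 in KK1471 and 0.582 in KK1467 there, the opposite order. The differences in this region lay between -0.093 and 0.029, against 0.071 to 0.498 in the 11 windows downstream of the inserted barrier. The position of the native site within these windows was not located, because chromosome II differs in length between the files and the reference.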

How the data were processed

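The authors aligned the Pu-Seq reads with Bowtie2 and deposited raw counts, 1 whole number for each 300-bp bin of each strand (41909 bins), with no scaling. The build is not given in the sources used here. The centre of the last bin differs from the end of the reference used for genes (RefSeq ASM294v3) by 0.117 kb on chromosome I, 2.046 kb on chromosome II and -1.733 kb on chromosome III, and genes were named only on chromosome I. The forward strand was taken as Watson. Only Pol δ libraries were used, and 2 of 12 with a mean under 10 counts per bin were left out. The members and region groups were chosen with earlier results of these data known.

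Shares are of summed counts, with 95% Wilson intervals. CPM values were computed here from the deposited counts and library totals. Windows of 3 kb with a mean of at least 10 counts per strand column were tested with edgeR 4.0.16 (quasi-likelihood F test, a term per library, TMM on the sum of both strands, Benjamini-Hochberg), and SEs are the log2 odds ratio divided by the square root of F. The window test was tested on simulated data. All windows around the barrier were described. Elsewhere, called windows under 6 kb apart were joined and the 10 regions with the largest odds ratio named, except windows that hold *rtf1* or *rpn10*. Origins are bins where the share of KK1467 drops by at least 0.2 and by more than at any bin within 5 kb. Alternatives covered the regions, barrier position, smoothing, reference library, window size, filter, DESeq2 1.42.0, the libraries in the fit, an offset for strand asymmetry and each Hygro library left out. The fit without *nup132Δ* libraries was added after seeing the data. Python 3.11.15 and R 4.3.3 were used.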

Additional observations from a re-analysis of the deposited data

Results flagged for a closer look

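The slope of the Watson share on that of KK1467 was lower in both *rpn10Δ* libraries with *rtf1* counts than in KK1581, by a mean difference of -0.132 (-0.152 in KK1868 and -0.112 in KK1869). In WT the library with ADH1:rtf1 was higher than that with rtf1::Nat, by 0.034. The latter is KK1467 itself, so its slope is 1 by construction. In *nup132Δ* all 4 libraries with ADH1:rtf1 were lower than KK1515, by a mean of -0.238, the direction of *rpn10Δ*. WT had 1 library per condition, and the difference between backgrounds was not tested. In *rpn10Δ* the Hygro marker and the *rtf1* counts cannot be told apart.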

How the results depend on the processing

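The share difference 1 to 3 kb downstream stayed positive under each alternative run. It was 0.335 as a mean of per-bin shares, 0.411 against KK1467, and 0.344 to 0.386 with either Hygro library left out. The upstream difference had no stable sign, at -0.00827 with the barrier 1 bin to the left, 0.097 against KK1467 and -0.00592 to 0.0359 with a library left out. The 50% distance was 27.15 kb with 21 bins and 25.95 to 27.15 kb with a library left out, and the slope difference -0.152 to -0.112. Against 418 windows called higher and 430 lower (848 in all), 1.5-kb windows gave 235 and 210 of 8383, with 21 around the barrier, and 6-kb windows gave 6 there. DESeq2 called 14 higher and 3 lower, the offset for strand asymmetry 168 and 157. The fit of all Pol δ libraries called 0 higher, 0 lower and 0 around the barrier, and 8 to 9 higher, 8 to 9 around the barrier and 0 lower with a Hygro library left out. The cause was not tested. The filter on low counts removed no window. Of the 10 named regions, DESeq2 kept 4 past the threshold, the offset 8 and the fit of all libraries 0. Precision is limited by 2 libraries against 1 and by 1726 counts in KK1581 from 1 to 3 kb. No paired analysis was possible because the strain numbers pair no library of one group with one of the other.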
